A study of Mus musculus with 6 samples.

Results

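At 48 h after induction, CAF-1 OFF and HOXA9 OFF iGMPs were compared directly, library against library, in single-cell RNA-seq data. iGMPs are granulocyte-macrophage progenitors from mouse bone marrow that are immortalised by a fusion of HOXA9 with the estrogen receptor (ER-HOXA9), so that they self-renew as long as estradiol is present. The libraries of both arms at 48 h were taken by the barcode endings given in the labels, barcodes with 200 to 6000 genes and at most 10% mitochondrial UMIs were kept, and UMIs (unique molecular identifiers, each marking 1 captured transcript) were summed per library. This left 927 CAF-1 OFF cells and 1404 HOXA9 OFF cells, 2331 of the 5872 kept cells of the series. Of 27998 gene columns, 4789 had a mean of at least 20 CPM (UMIs per 1e6 UMIs of the library) over all 6 libraries, 43 of these were at least 2-fold apart between both uninduced (0 h) libraries and were set aside, and 4746 genes were compared. The last gene set aside was Alyref (0 h log2 ratio of -1.0016) and the first one kept Dnajc21 (-0.99).

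All cells carried the label Lys-GFP-ER-HoxA9 and the strain label C57BI/6, that is, a GFP reporter of lysozyme expression together with the ER-HOXA9 transgene, and all were grown with stem cell factor (SCF). The CAF-1 OFF library came from cells with an inducible shRNA against Chaf1b, treated with 500 µM IPTG for 48 h while estradiol (150 ng/ml) kept HOXA9 active. The HOXA9 OFF library came from cells washed free of estradiol and cultured without it for 48 h, in a clone that carried a control shRNA. Each arm had its own uninduced library, kept in estradiol. Each arm was thus a different clone, so clone and treatment cannot be told apart, and the uninduced pair is the only measure of how far the clones differed beforehand. Both arms carry the transgene, live cells were sorted before capture, and the shRNA lowers Chaf1b without deleting it. There was 1 library per group, so no difference has a replicate check and no test of the conditions was made. Intervals in parentheses after a fold are exact 95% binomial (Clopper-Pearson) intervals and cover counting error only. A fold is the ratio of CPM, and a log2 ratio is CAF-1 OFF over HOXA9 OFF with 10 CPM first added to each, so that differences of weakly detected genes are understated. A gene is called higher in an arm where this log2 scale puts it at least 2-fold higher there.

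CAF-1 (chromatin assembly factor 1) is the histone chaperone that places newly made histones H3 and H4 on DNA behind the replication fork, and its loss changes cell identity in several cell types. HOXA9 is a homeobox transcription factor that keeps myeloid progenitors in a self-renewing state. Neutrophil precursors leave that state in steps: they first make the primary (azurophil) granule proteins, then stop dividing and make secondary and tertiary granule proteins, and finally acquire the NADPH oxidase and the motile surface of the mature cell.

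The libraries were of like total depth, with 5589486 and 5310431 UMIs, but depth per cell differed. The median was 5998 UMIs and 2079 genes per cell in CAF-1 OFF and 3535.5 UMIs and 1250 genes in HOXA9 OFF. Mitochondrial genes took 5.51% and 4.88% of UMIs, cytosolic ribosomal protein genes 26.6% and 28.4%, and the 10 most abundant genes 7.77% and 11.6%. The mitochondrial limit removed 18.3% and 12.1% of barcodes at 48 h, against 41.7% and 66.2% in the uninduced libraries. The Scrublet doublet caller marked 4.75% and 0.285% of the kept cells, which stayed in. The 48 h libraries shared 0 kept barcode sequences, and 0 UMIs of the genes listed as not expressed in blood cells were found in either. Chaf1b, the target of the shRNA, was at 35.6 and 51.5 CPM at 0 h, 3.22 and 15.3 CPM at 48 h (18 and 81 UMIs) and 6.49 and 1.14 CPM at 96 h (CAF-1 OFF and HOXA9 OFF, in this order throughout), so it was below its uninduced level in both arms and, at 48 h, 4.74-fold (2.82 to 8.39) lower in CAF-1 OFF. In sums over a library, fewer cells of a type and less RNA per cell cannot be told apart.

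CAF-1 OFF and HOXA9 OFF cells were far apart at 48 h. Of the 4746 genes compared, CAF-1 OFF had 939 (19.8%) at a level at least 2-fold above HOXA9 OFF, HOXA9 OFF had 467 (9.84%) at least 2-fold above CAF-1 OFF, and 3340 were under 2-fold. Between the uninduced libraries the same size was reached by 7 genes (0.146%) and 36 genes (0.752%) of the 4789. As a root mean square, the log2 ratio was 1.07 at 48 h and 0.219 for the same genes at 0 h. Differences towards CAF-1 OFF were more numerous but smaller: 153 and 126 genes were past 4-fold, 22 and 38 past 8-fold, and 6 and 17 past 16-fold. The split in direction depended on scaling, with 66.8% of the 2-fold genes higher in CAF-1 OFF by CPM, 44.7% with TMM factors (563 and 697 genes), 48.4% with median-of-ratios factors (614 and 656 genes) and 90.02% per kept cell (1885 and 209 genes), which move the median log2 ratio of all genes by -0.29, -0.24 and 0.53. All 24 genes named for their size were past 2-fold under each of these scalings. They were chosen as the largest ratios, so this largely follows from the choice and is no separate support.

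By CPM, most genes called at 48 h had moved from their uninduced level in HOXA9 OFF and not in CAF-1 OFF. These genes were chosen by the same 48 h values, so the counts below describe them and are no separate support. Among the 3340 genes under 2-fold, 5.42% fell and 5.27% rose at least 2-fold in HOXA9 OFF. In CAF-1 OFF 0.0599% of them fell and 1.38% rose. The 939 genes towards CAF-1 OFF had a median of 93.5 CPM at 0 h and 89.6 CPM at 48 h in the CAF-1 OFF arm, and of 87.8 and 23.7 CPM in the HOXA9 OFF arm. Of them, 746 (79.4%) were at least 2-fold below the uninduced library of HOXA9 OFF, whereas 40 were at least 2-fold above the uninduced library of CAF-1 OFF, 11 of these belonging to both counts. The 467 genes higher in HOXA9 OFF had medians of 17.8 CPM at 0 h and 23.4 CPM at 48 h in the CAF-1 OFF arm against 19.1 and 106 CPM in the other, and took 4.76% of all UMIs of CAF-1 OFF against 19.6% of HOXA9 OFF at 48 h. Of these genes, 403 (86.3%) rose at least 2-fold in HOXA9 OFF and stayed under 2-fold in CAF-1 OFF, and 33 (7.07%) rose in both arms.

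**Figure D1:**
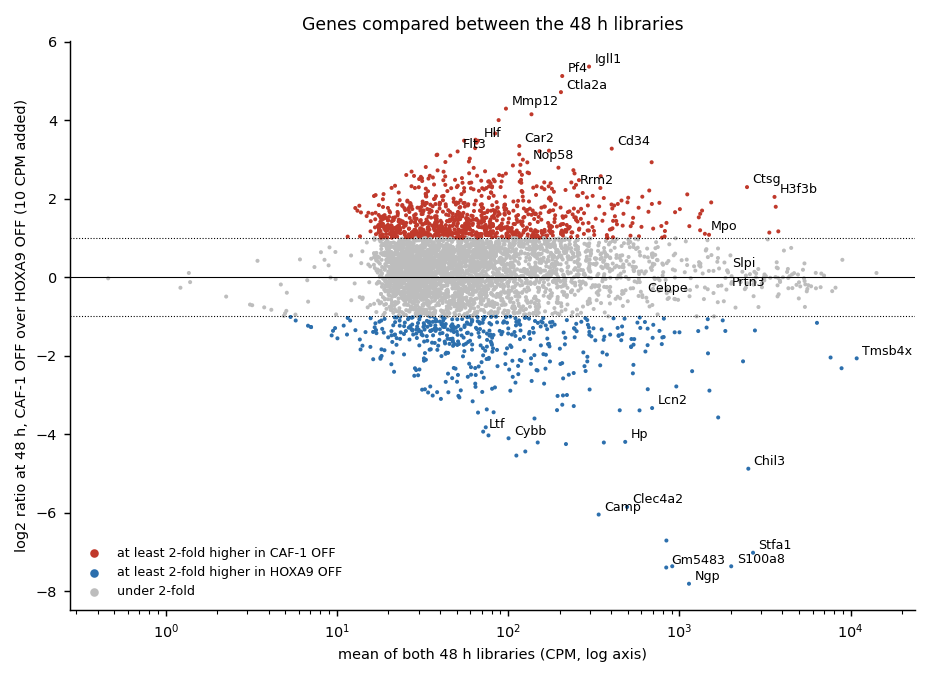
Each point is 1 of the 4746 genes compared; the x axis is its mean CPM over both 48 h libraries (log axis) and the y axis the log2 ratio of CAF-1 OFF over HOXA9 OFF after adding 10 CPM, with red and blue for the 939 genes called towards CAF-1 OFF and the 467 called towards HOXA9 OFF. The blue points reach much further from 0 than the red ones, down to -7.81 for Ngp against 5.37 for Igll1, the highest.

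The 12 genes with the highest ratios towards CAF-1 OFF were of varied function. Igll1, a surrogate light chain of the pre-B cell receptor that is also transcribed in early progenitors, stood at 315 and 350.1 CPM at 0 h and at 589 and 4.52 CPM at 48 h, 130.3-fold (87.4 to 204) higher in CAF-1 OFF. Pf4, the platelet chemokine, went from 22.3 and 10.02 CPM to 412 and 2.07 CPM, a difference of 199-fold (111 to 399). Ctla2a, a cathepsin inhibitor, was at 401 and 5.65 CPM, Nrgn, a calmodulin-binding protein, at 268 and 5.65 CPM and Sdc1, a heparan sulfate proteoglycan, at 164 and 3.77 CPM. These genes differed in where the gap came from. Of the 0 h and 48 h libraries, Pf4 and Mmp12, a macrophage elastase (10.9 and 9.78 CPM at 0 h, 194 and 0.377 CPM at 48 h), were high in CAF-1 OFF at 48 h alone, whereas Ctla2a, Nrgn and Sdc1 were low in HOXA9 OFF at 48 h alone.

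Transcription factors stood among the same genes. Ebf1, a regulator of the B cell lineage, was detected at 211 and 272 CPM at 0 h and at 174 and 1.51 CPM at 48 h, a 116-fold (58.5 to 269) difference. Hlf, a PAR bZIP factor of stem and progenitor cells, was at 115 and 114 CPM and then at 131 and 2.64 CPM. Gas6, the ligand of the TAM receptor kinases, was at 109.8 and 0.753 CPM, 146-fold (56.7 to 537) higher in CAF-1 OFF, from 101 and 47 CPM at 0 h. Car2, carbonic anhydrase 2, moved in opposite directions, from 96.8 up to 219.7 CPM in CAF-1 OFF but from 83.1 down to 12.6 CPM in HOXA9 OFF. Ppp1r14c, an inhibitor of protein phosphatase 1, and the transcript 2310075C17Rik completed the 12, at 127 and 2.07 CPM and at 128 and 2.82 CPM.

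The 12 genes with the highest ratios towards HOXA9 OFF were genes of the neutrophil granule and cytosol, with the lectin receptor Clec4a2 and a few surface genes. Ngp, neutrophilic granule protein, had 12082 UMIs (2275 CPM) in HOXA9 OFF and 1 UMI in CAF-1 OFF, and 0 UMIs in both uninduced libraries. S100a8, a subunit of the calcium-binding complex calprotectin, stood at 14.3 and 4001 CPM, 279.5-fold (224 to 353) higher in HOXA9 OFF. Its partner S100a9 was at 1.07 and 1816 CPM. Chil3, a chitinase-like protein of granules, was also well above its uninduced level of 2.37 CPM in CAF-1 OFF, yet differed 31.2-fold (29.2 to 33.5) between the arms, at 157 and 4897 CPM. Camp, the cathelicidin precursor, was at 0.358 and 675 CPM, Clec4a2 at 7.16 and 983 CPM, Ifitm6 at 1.97 and 249.9 CPM and Igsf6, an immunoglobulin-fold surface protein, at 12.7 and 422 CPM. The transcript 2010005H15Rik was found at 223 CPM in HOXA9 OFF and at 0 UMIs in CAF-1 OFF, at least 416-fold higher against a floor of 3 UMIs per library (0.537 CPM).

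**Figure D2:**
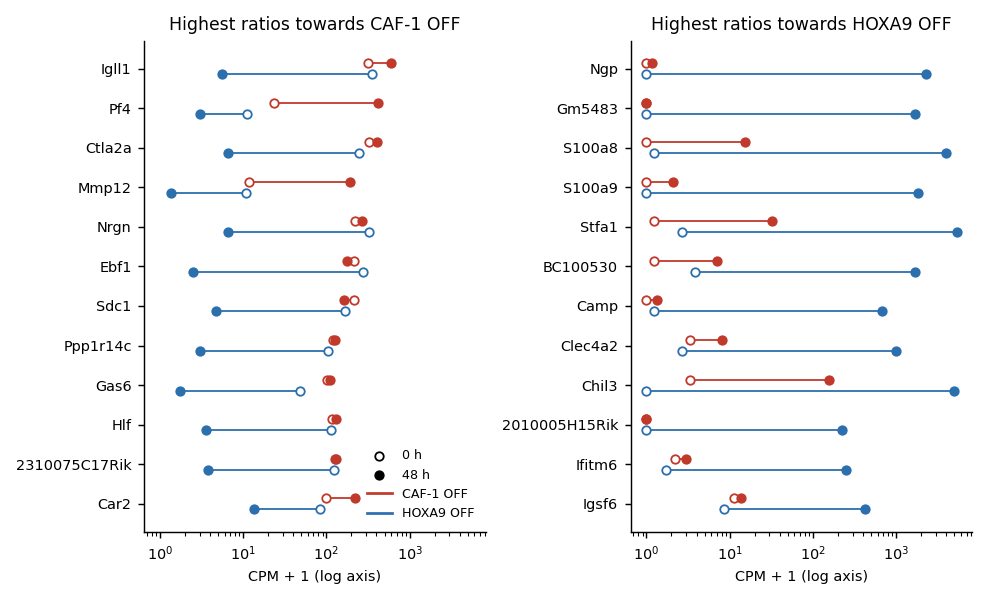
Rows are the 12 genes with the highest ratios in each direction, the x axis is CPM + 1 (log axis), open circles are the 0 h and filled circles the 48 h libraries, red CAF-1 OFF and blue HOXA9 OFF. In the left panel the long blue lines run downwards from 0 h while red lines are short except for Pf4 and Mmp12; in the right panel the long blue lines run upwards, and only Chil3 and Stfa1 of CAF-1 OFF come past 30 CPM.

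Progenitor genes were maintained in CAF-1 OFF and reduced in HOXA9 OFF. Of 15 listed genes 10 could be compared, and 8 were higher in CAF-1 OFF, 1 in HOXA9 OFF and 1 under 2-fold, with a median log2 ratio of 2.26 beside 0.27 over all genes compared. Cd34, the sialomucin of stem and progenitor cells, was at 756 and 660.1 CPM at 0 h and at 738 and 67.2 CPM at 48 h, 11-fold (9.85 to 12.3) higher in CAF-1 OFF. The receptor tyrosine kinases Flt3 (99.5 and 1.88 CPM) and Kit (73.9 and 9.98 CPM), the latter the SCF receptor, differed 52.8-fold (28.5 to 111) and 7.40-fold (5.55 to 10.1). The transcription factor gene Sox4 stood at 74.6 and 2.82 CPM, Angpt1, a ligand of the TIE2 receptor, at 60.1 and 2.82 CPM and Gata2, a GATA factor of stem cells and mast cells, under 2-fold on the log2 scale, at 38.8 and 23.4 CPM. Summed over the listed genes, the level was 1650.00 and 1559 CPM at 0 h and 1607 and 306 CPM at 48 h.

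Partners and targets of HOXA9 did not move as a block. Of 11 compared, 5 were higher in CAF-1 OFF, 3 in HOXA9 OFF and 3 under 2-fold, and their median of 0.28 became -0.03 with TMM factors. Meis1, the homeobox cofactor of HOXA9, was at 31.3 and 3.77 CPM, Myb, a transcription factor of progenitors, at 281 and 93.6 CPM, and Cdk6, a cyclin D-dependent kinase, at 428 and 60.1 CPM, 7.13-fold (6.34 to 8.04) higher in CAF-1 OFF. Id2, an inhibitor of E proteins, lay in the other direction at 46.3 and 226 CPM, as did Ccnd3, a cyclin D, at 137 and 303 CPM. Hoxa9 itself was counted at 24.7 and 23.1 CPM at 0 h and at 24.2 and 71.9 CPM at 48 h, so the arm without estradiol had the higher value, 2.98-fold (2.44 to 3.65). These counts do not by themselves tell the transgene from the endogenous gene, and estradiol acts on the fusion protein. In separate RNA-seq of iGMPs, uninduced and at 48 h of both inductions, the paper saw no reads over the untranslated ends of Hoxa9. It reads this as transcription of the transgene and not of the endogenous gene.

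Primary granule genes were present in both arms. Of 11 compared, 5 were higher in CAF-1 OFF, 3 in HOXA9 OFF and 3 under 2-fold, and the median of 0.27 became -0.09 with TMM factors. The list is wider than the proteins of this granule, as it takes in Calr, Igsf6 and Nkg7. Igsf6 had its lowest log2 ratio (-4.25) and Nkg7 its highest (2.60). The serine protease gene Ctsg (cathepsin G) was at 3472 and 3309 CPM at 0 h and at 4131 and 833 CPM at 48 h, 4.96-fold (4.80 to 5.12) higher in CAF-1 OFF. Mpo, myeloperoxidase, was at 1928 and 890.3 CPM, and Calr, an endoplasmic reticulum chaperone that assists Mpo folding, at 2000.5 and 646 CPM. Prtn3, proteinase 3, was nearly level at 1676 and 2088 CPM. Towards HOXA9 OFF lay Ms4a3, a membrane protein of granulocyte-monocyte progenitors, at 371 and 934 CPM, and Fcnb, a ficolin of neutrophil granules, at 34.7 and 354 CPM, 10.2-fold (8.79 to 11.9) higher. Nkg7, a granule membrane protein, moved apart from a common level of 52.4 and 59.7 CPM to 159 and 17.9 CPM. Elane, neutrophil elastase, was set aside for its 0 h difference and stood at 129 and 48.2 CPM before and 913 and 512 CPM after.

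Secondary and tertiary granule genes had the median ratio furthest from 0 of the 33 lists. Of 13 compared, 0 were higher in CAF-1 OFF, 11 in HOXA9 OFF and 2 under 2-fold, with a median log2 ratio of -3.33. Ltf, lactoferrin, had 759 UMIs (143 CPM) in HOXA9 OFF and 0 in CAF-1 OFF, at least 266-fold higher against the floor. Lcn2, the siderophore-binding lipocalin, was induced in both arms, from 8.78 and 23.1 CPM to 117 and 1269 CPM, and still differed 10.9-fold (10.02 to 11.8). Hp, haptoglobin, was at 41 and 924 CPM and Mmp9, a gelatinase of tertiary granules, at 0.895 and 35 CPM. Counted on the list, though they encode no granule content, were Ltb4r1, the leukotriene B4 receptor, at 53 and 366 CPM, and Padi4, which citrullinates histones, at 0 and 43.1 CPM. Lyz1, a lysozyme gene, was near level at 30.4 and 44.1 CPM. Mmp8, neutrophil collagenase, went against the list at 582 and 122 CPM, but the uninduced libraries already differed (24.2 and 4.53 CPM) and it was set aside.

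The promoters of Ngp and Ltf are shown because these genes were at or near 0 UMIs in CAF-1 OFF and at 12082 and 759 UMIs in HOXA9 OFF. The sequences are the 250 bases before the annotated start in RefSeq (GRCm38.p6), written 5′ to 3′ on the gene's strand: Ngp at chr9:110419558-110419807 on the plus strand, Ltf at chr9:111019042-111019291 on the plus strand. Capitals mark matches on either strand to 7 motifs: the C/EBP-type element TTGCNNAA, the CCAAT box CCAAT, the ETS core CCGGAA, the E-box CACGTG, the GATA site AGATAA, and the E2F forms TTTCCCGC and TTTGGCGC.
Ngp: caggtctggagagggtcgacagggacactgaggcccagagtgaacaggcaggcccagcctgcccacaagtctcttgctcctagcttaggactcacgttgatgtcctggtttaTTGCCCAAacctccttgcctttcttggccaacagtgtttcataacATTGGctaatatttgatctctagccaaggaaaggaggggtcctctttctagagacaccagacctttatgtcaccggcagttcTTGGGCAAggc
Ltf: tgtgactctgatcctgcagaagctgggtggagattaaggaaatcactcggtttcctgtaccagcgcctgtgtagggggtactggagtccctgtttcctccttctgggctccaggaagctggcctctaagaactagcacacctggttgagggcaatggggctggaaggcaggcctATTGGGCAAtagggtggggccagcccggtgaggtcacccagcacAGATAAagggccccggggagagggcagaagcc
Ngp held 2 C/EBP-type elements and 1 CCAAT box, and Ltf 1 C/EBP-type element that overlaps a CCAAT box, both on the strand opposite to the gene, and 1 GATA site 32 bases before the start. Of the 11 compared secondary and tertiary granule genes with a promoter window (300 bases, 250 before the start and 50 after), 4 held a C/EBP-type element (36.4%), 5 a CCAAT box (45.5%) and 3 a GATA site (27.3%). Over the windows of all 27025 genes the shares were 12.2%, 41.1% and 12.7%, and for the ETS core 16.7%, the E-box 8.09% and the E2F forms 1.24% and 0.585%. All genes take in many not compared here. For the 2686 compared genes under 2-fold with a window, the shares were 10.2%, 43.2% and 7.22%. For the ETS core they were 40.5%, for the E-box 12.6% and for the E2F forms 2.53% and 1.49%. A match describes these letters and is no evidence of binding. C/EBP factors activate many granule genes, and their own transcripts are given further on.

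Cytosolic and secreted proteins of the neutrophil followed the granule genes. Of 14 compared genes of the neutrophil cytosol and surface, 0 were higher in CAF-1 OFF, 8 in HOXA9 OFF and 6 under 2-fold (median -1.27); per kept cell 4 remained past 2-fold. Pglyrp1, a peptidoglycan recognition protein, was at 151 and 1156 CPM, and Anxa1, an annexin that restrains inflammation, rose in both arms, from 109.9 and 82.3 to 545 and 1458 CPM. Csf3r, the G-CSF receptor, was at 11.1 and 47.1 CPM. Genes of the mature neutrophil were barely detected in either arm, with the secreted resistin-like Retnlg at 0.179 and 4.33 CPM, the surface antigen Ly6g at 0.179 and 7.34 CPM and the chemokine receptor Cxcr2 at 3.22 and 10.4 CPM.

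The stefins, small inhibitors of cysteine proteases encoded in a mouse gene cluster, showed some of the widest gaps. Of 11 stefin and WFDC inhibitor genes compared, 0 were higher in CAF-1 OFF, 10 in HOXA9 OFF and 1 under 2-fold (median -2.87). Stfa1 was at 31.3 and 5353 CPM, 171-fold (147 to 199.5) higher in HOXA9 OFF, BC100530 at 6.08 and 1673 CPM, 275-fold (197 to 397), and Gm5483 at 0 and 1676 CPM, at least 3122-fold higher. Stfa2l1 and Stfa3 also had 0 UMIs in CAF-1 OFF, at 153 and 62.9 CPM in HOXA9 OFF. These genes are near-identical copies, so their individual values are uncertain. Slpi, a secreted inhibitor of elastase, was the exception: it rose from 141 and 152 CPM to 2016 and 1786 CPM, a ratio of 1.13.

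The NADPH oxidase, the enzyme complex that makes superoxide in phagocytes, was higher in HOXA9 OFF. Of its 7 listed genes, 0 were higher in CAF-1 OFF, 6 in HOXA9 OFF and 1 under 2-fold (median -1.92). The catalytic subunit gene Cybb had 0 UMIs in both uninduced libraries and stood at 2.15 and 199 CPM at 48 h, 92.6-fold (52.8 to 179.8) higher in HOXA9 OFF. Its membrane partner Cyba was at 601 and 2336 CPM. The cytosolic subunits Ncf1 (48.1 and 282 CPM) and Ncf4 (109 and 440.3 CPM) were 5.87-fold (5.15 to 6.70) and 4.03-fold (3.68 to 4.41) higher, and the GTPase Rac2 2.62-fold (2.50 to 2.75), while Rac1 was under 2-fold at 343 and 448 CPM. After adding 10 CPM, each of the 7 genes in CAF-1 OFF was within 2-fold of its uninduced level, with Ncf1, for example, at 56.9 CPM at 0 h and 48.1 CPM at 48 h.

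Genes of the actin cytoskeleton and adhesion showed the same direction with smaller ratios. Of 16 actin and migration genes, 0 were higher in CAF-1 OFF, 8 in HOXA9 OFF and 8 under 2-fold (median -0.94), and their summed level was 11441 CPM in CAF-1 OFF against 31476 CPM in HOXA9 OFF. Tmsb4x, the actin monomer binder thymosin beta 4, accounted for much of this sum, at 4172 and 17524 CPM from 2574 and 2223 CPM at 0 h. Lsp1, a leukocyte actin-binding protein, was at 6.26 and 291 CPM, 46.5-fold (33.3 to 67) higher in HOXA9 OFF. The Arp2/3 subunits Arpc1b, Arpc2 and Arpc5 were 2.60-fold (2.52 to 2.68), 2.92-fold (2.79 to 3.07) and 2.96-fold (2.75 to 3.18) higher, whereas Cfl1 (cofilin) and Pfn1 (profilin) were under 2-fold. Of 9 integrin and selectin genes, 0 were higher in CAF-1 OFF, 2 in HOXA9 OFF and 7 under 2-fold, beside 9.84% of all genes higher in HOXA9 OFF. The 2 were Itgam (CD11b) at 2.86 and 130.5 CPM and its partner Itgb2 at 32.9 and 196 CPM. Per kept cell, 2 of 16 actin genes were past 2-fold in HOXA9 OFF and 1 in CAF-1 OFF, and of the integrin list 2 and 2. With TMM factors 5 integrin and selectin genes were past 2-fold in HOXA9 OFF.

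Chemokines and cytokine receptors were split between the arms. Among 10 chemokine and receptor genes, 3 were higher in CAF-1 OFF, 4 in HOXA9 OFF and 3 under 2-fold. Ccl9 (1811 and 412 CPM), Ccr2 (309 and 60.6 CPM) and Cxcl3 (183 UMIs against 1, 32.7 and 0.188 CPM) were higher in CAF-1 OFF. Ccl3 (59.8 and 262 CPM), Ccl6 (6.44 and 87.8 CPM), Ccr1 (6.80 and 82.3 CPM) and Cxcr4, the marrow retention receptor (12 and 59.9 CPM), were higher in HOXA9 OFF. Among 8 cytokine receptors, 2 were higher in CAF-1 OFF, 4 in HOXA9 OFF and 2 under 2-fold. Besides Kit and Flt3, which lay towards CAF-1 OFF, receptors of colony-stimulating factors lay towards HOXA9 OFF, with Csf1r at 1.97 and 57.6 CPM and Csf2ra at 30.6 and 133 CPM, and Csf3r as given above.

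Genes of DNA replication and mitosis were kept in CAF-1 OFF and reduced in HOXA9 OFF. Of 25 replication genes, 21 were higher in CAF-1 OFF, 0 in HOXA9 OFF and 4 under 2-fold (median 1.55; 17 past 2-fold with TMM factors). Rrm2, the regulatory subunit of ribonucleotide reductase, was at 283 and 232 CPM at 0 h and at 409 and 76.3 CPM at 48 h, 5.37-fold (4.82 to 5.98) higher in CAF-1 OFF. The replicative helicase subunits Mcm2, Mcm3, Mcm4, Mcm5 and Mcm7 were 3.78-fold (3.09 to 4.66), 3.79-fold (3.19 to 4.54), 3.52-fold (2.84 to 4.41), 2.80-fold (2.38 to 3.31) and 3.39-fold (3.01 to 3.83) higher, and Mcm6 was under 2-fold. Pcna, the sliding clamp to which CAF-1 binds at the fork, was at 151 and 158 CPM at 0 h and 154 and 48.2 CPM at 48 h. Of 23 mitosis genes, 16 were higher in CAF-1 OFF, 0 in HOXA9 OFF and 7 under 2-fold (median 1.19; 9 with TMM factors), including Cdk1 (248 and 65.3 CPM), Ccnb1 (196 and 51.2 CPM) and Plk1 (74.1 and 22.2 CPM). Mki67, a proliferation marker, was at 72.3 and 34.5 CPM, just under the size on the log2 scale.

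Few genes that restrain the cell cycle were past 2-fold, and their direction depended on scaling. Of 6 compared, 1 was higher in CAF-1 OFF, 1 in HOXA9 OFF and 4 under 2-fold, beside 19.8% and 9.84% of all genes in these directions. With TMM factors the counts were 0 and 2. Btg1, an anti-proliferative factor, was at 34.9 and 42 CPM at 0 h and at 38.3 and 379.6 CPM at 48 h, 9.92-fold (8.61 to 11.5) higher in HOXA9 OFF. Cdkn2c, which encodes p18 INK4C, was at 67.1 and 23.2 CPM, 2.90-fold (2.36 to 3.58) higher in CAF-1 OFF, where it had been at 20.2 CPM before induction. Cdkn2a was level at 469 and 439.7 CPM. Of 6 p53 targets only Aen, an exonuclease of the apoptotic response, was past 2-fold, at 21.8 and 5.46 CPM (0 of 6 with TMM factors). Mdm2 was at 27.6 and 39 CPM and Bax at 205 and 160.1 CPM.

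Promoters of Ccnb2 (cyclin B2, 202 and 84.7 CPM) and Mcm5 (103 and 36.7 CPM) are shown as examples of the mitosis and replication lists, of which 16 of 23 and 21 of 25 genes were higher in CAF-1 OFF, beside 19.8% of all genes. The 250 bases before the start are at chr9:70421555-70421804 on the minus strand and at chr8:75109259-75109508 on the plus strand (RefSeq, GRCm38.p6), with the same 7 motifs in capitals.
Ccnb2: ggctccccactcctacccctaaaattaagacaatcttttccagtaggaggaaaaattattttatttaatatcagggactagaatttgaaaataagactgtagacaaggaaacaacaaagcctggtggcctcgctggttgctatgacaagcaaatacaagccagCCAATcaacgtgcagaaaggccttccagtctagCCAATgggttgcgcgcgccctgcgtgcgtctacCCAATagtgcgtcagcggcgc
Mcm5: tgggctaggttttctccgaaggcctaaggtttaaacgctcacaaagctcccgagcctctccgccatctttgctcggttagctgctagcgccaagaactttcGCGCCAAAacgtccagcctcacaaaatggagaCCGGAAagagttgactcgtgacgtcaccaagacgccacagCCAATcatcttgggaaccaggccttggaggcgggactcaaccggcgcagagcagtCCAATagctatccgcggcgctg
Ccnb2 held 3 evenly spaced CCAAT boxes, at 87, 54 and 21 bases before the start, and Mcm5 held 2 CCAAT boxes, 1 ETS core and 1 E2F form. Of the 19 mitosis genes with a window, 16 (84.2%) held a CCAAT box. Of the 21 replication genes with a window, 12 (57.1%) held a CCAAT box and 5 and 4 (23.8% and 19.0%) an E2F form (TTTCCCGC and TTTGGCGC). The shares over all genes are those given above, 41.1% for the CCAAT box and 1.24% and 0.585% for the E2F forms. For the compared genes under 2-fold they were 43.2%, 2.53% and 1.49%. CCAAT boxes are bound by NF-Y and E2F sites by the E2F family, and neither binding was measured here. Windows were found for 777 of the 939 genes towards CAF-1 OFF and 365 of the 467 towards HOXA9 OFF, under 80% of the latter, so motif shares over whole directions are not given.

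By CPM most histone chaperone genes were higher in CAF-1 OFF, but few were past 2-fold with other scalings. Chaf1b had a mean under 20 CPM over the libraries and is not among the genes compared. Chaf1a, the largest subunit of CAF-1, was at 29 and 12.8 CPM, under 2-fold on the log2 scale, and Rbbp4, the third subunit, at 176 and 82.3 CPM. Of 16 histone chaperone genes, 11 were higher in CAF-1 OFF, 0 in HOXA9 OFF and 5 under 2-fold (median 1.06). The share of all genes higher in CAF-1 OFF was 19.8%. With TMM factors 3 of the 16 were higher in CAF-1 OFF, and with median-of-ratios factors 4. Asf1a and Asf1b, which hand H3-H4 to CAF-1, were 2.84-fold (2.38 to 3.42) and 2.19-fold (1.91 to 2.53) higher in CAF-1 OFF, and Nasp, a reservoir of H3-H4, 3.42-fold (2.90 to 4.06). The chaperones of the replication-independent route, Daxx (18.6 and 15.4 CPM), Atrx (54.7 and 64.2 CPM) and Ubn1 (25.6 and 35 CPM), were under 2-fold.

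Among histone genes, H3f3b stood apart. It encodes the replication-independent variant H3.3, and was at 1948 and 1746 CPM at 0 h and at 5791 and 1395 CPM at 48 h, 4.15-fold (4.05 to 4.26) higher in CAF-1 OFF. H3f3a, which encodes the same protein, was level at 2482 and 2409 CPM. Of 10 replication-independent histone genes, 4 were higher in CAF-1 OFF, 0 in HOXA9 OFF and 6 under 2-fold (1 in CAF-1 OFF with TMM factors). Of all genes, 19.8% were higher in CAF-1 OFF by CPM. The other histone genes past 2-fold by CPM were H2afz (4611 and 2091 CPM), H2afx (165 and 73.4 CPM) and the centromeric H3 gene Cenpa (515 and 239 CPM). Both replication-dependent histone genes that could be compared, Hist1h4i (214 and 26.7 CPM) and Hist1h2bc (99.3 and 29.6 CPM), were higher in CAF-1 OFF, and above their uninduced levels of 67.4 and 31.8 CPM in that arm. These transcripts mostly lack poly(A) tails, 18 of the 20 listed were not compared, and histone copies share sequence.

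By CPM most genes of heterochromatin were lower in HOXA9 OFF. Of 13 compared, 8 were higher in CAF-1 OFF, 0 in HOXA9 OFF and 5 under 2-fold (median 1.27), beside 19.8% of all genes higher in CAF-1 OFF. With TMM factors 4 of the 13 were higher in CAF-1 OFF, and with median-of-ratios factors 7. The HP1 genes Cbx1, Cbx3 and Cbx5 were 2.77-fold (2.40 to 3.20), 2.80-fold (2.47 to 3.18) and 4.10-fold (3.34 to 5.07) higher in CAF-1 OFF, of which HP1 alpha (Cbx5) is known to bind CAF-1. Uhrf1, which recruits DNA methyltransferase 1 to hemimethylated DNA, was at 52.1 and 10.4 CPM, and Dnmt1 at 51.9 and 27.1 CPM. Of 8 nuclear envelope genes, 4 were higher in CAF-1 OFF, 2 in HOXA9 OFF and 2 under 2-fold, beside 19.8% and 9.84% of all genes in these directions. Lmnb1, lamin B1, was at 131 and 33 CPM, while Syne1, a nesprin that ties the nucleus to the cytoskeleton, was at 3.22 and 57.4 CPM, 17.8-fold (11.1 to 30.5) higher in HOXA9 OFF.

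Genes of ribosome biogenesis were nearly all higher in CAF-1 OFF. Of 17 nucleolar genes, 15 were higher in CAF-1 OFF, 0 in HOXA9 OFF and 2 under 2-fold (median 1.80; 12 with TMM factors). Nop58, a core protein of box C/D snoRNPs, was at 294 and 249 CPM at 0 h and at 236 and 22.4 CPM at 48 h, 10.5-fold (8.74 to 12.8) higher in CAF-1 OFF. Myc, which drives nucleolar genes, was at 89.99 and 10.4 CPM, Ncl (nucleolin) at 736 and 182 CPM and Gnl3 (nucleostemin) at 89.99 and 7.91 CPM. In CAF-1 OFF the list also lay below its uninduced level, with a summed 4665 CPM against 6492 CPM, and in HOXA9 OFF it was at 1636 against 6242 CPM. None of the 82 cytosolic ribosomal protein genes compared was past 2-fold (median -0.05), nor any of 11 mitochondrially encoded genes (median 0.19).

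Gene families grouped by symbol after the values were seen are given beside the 19.8% of all genes that were higher in CAF-1 OFF. Towards CAF-1 OFF lay 11 of 18 cytosolic aminoacyl-tRNA synthetase genes (median 1.13), 11 of 17 importin and nucleoporin genes and 4 of 7 chaperonin subunits. Of 31 heat shock genes, 14 lay there too, and Dnajc5 towards HOXA9 OFF. Nearer the share of all genes were 25 of 74 mitochondrial ribosomal protein genes, 11 of 38 genes with proteasome symbols and 11 of 43 with Eif symbols. Among the latter, Eif4a2 lay towards HOXA9 OFF. The 38 take in Psmc3ip, counted as higher, which encodes no proteasome subunit. The 43 take in Eif1ad, counted as higher, and Eif4ebp1, which are not initiation factors. These family counts are by CPM and were not repeated under other scalings. Hspd1, the mitochondrial chaperonin, was at 602 and 92.8 CPM and Hsp90aa1 at 1103 and 231 CPM. Energy metabolism was near the share of all genes: 4 of 20 nuclear genes of oxidative phosphorylation were higher in CAF-1 OFF (Atp5b at 1553 and 459.7 CPM), with 2 by TMM factors and 15 per kept cell. Of 13 glycolysis genes 3 were higher in CAF-1 OFF, 1 in HOXA9 OFF and 9 under 2-fold (Ldha at 773 and 291 CPM, Gpi1 at 383 and 791 CPM), with 1 and 2 past 2-fold by TMM factors and 6 and 0 per kept cell. Towards HOXA9 OFF, where 9.84% of all genes lay, were 5 of 7 S100 genes and 3 of 11 V-ATPase subunits, the other 8 subunits being under 2-fold. AP-1 genes did so too, with Fos at 5.01 and 145 CPM and Junb at 24.3 and 95.5 CPM. The C-type lectins of 1 cluster were split, as Clec4a2 and Clec4a3 (2.68 and 86.8 CPM) were higher in HOXA9 OFF, and Clec4d (107 and 12.1 CPM) and Clec4e (116 and 27.1 CPM) in CAF-1 OFF.

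Most myeloid transcription factors were under 2-fold apart, as were 3340 of the 4746 genes compared. Of 13, 1 was higher in CAF-1 OFF, 2 in HOXA9 OFF and 10 under 2-fold. With TMM factors 1 and 4 were past 2-fold, and the sign of the median (-0.44) turned per kept cell (0.20). Cebpe, the C/EBP factor required for secondary granules, rose in both arms from 67.4 and 82.3 CPM to 510.1 and 704 CPM, a ratio of 1.38-fold (1.31 to 1.45) towards HOXA9 OFF. Cebpa was at 66.9 and 35 CPM, Cebpb at 102 and 199.98 CPM, Elf1 at 47.2 and 61 CPM and Runx1 at 29 and 45 CPM, all under 2-fold. Spi1, which encodes PU.1, was 3.54-fold (3.32 to 3.77) higher in HOXA9 OFF, at 230.1 and 814 CPM. Gfi1, a repressor that favours the neutrophil over the monocyte fate, was 3.07-fold (2.55 to 3.72) higher in CAF-1 OFF, at 86.2 and 28.1 CPM, having been at 27.8 and 59.7 CPM at 0 h.

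Interferon response genes also showed no common direction at 48 h. Of 13, 4 were higher in CAF-1 OFF, 1 in HOXA9 OFF and 8 under 2-fold (median -0.13, or 0.26 per kept cell). Over all genes compared the shares were 19.8% and 9.84%. Ifitm3, which blocks viral entry, was at 1220.00 and 461 CPM from 403 and 329 CPM at 0 h, and the nonclassical MHC gene H2-Q7, which is not on the list, at 195 and 18.5 CPM. Isg15, a ubiquitin-like modifier, was at 14.3 and 16.6 CPM.

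Few genes of other lineages were among those compared. Of the 14 megakaryocyte genes 3 were compared and only Pf4 was past 2-fold, with Gp9 at 73.4 and 43.5 CPM and Itga2b, the platelet integrin, at 13.8 and 28.1 CPM, while Gp1bb, Gp1ba and Rab27b had 0 UMIs in both 48 h libraries. The summed level of the list was 51.5 and 39.9 CPM at 0 h and 520.1 and 104 CPM at 48 h. Of 18 erythroid genes 3 were compared; Car2 and the transferrin receptor Tfrc (55.8 and 17.9 CPM) were higher in CAF-1 OFF, and the defining genes Gata1 (4.47 and 8.29 CPM), Klf1 (2.50 and 0.377 CPM) and Alas2 (0 UMIs in both) were near or at 0. Of the 8 compared monocyte genes 1 was higher in CAF-1 OFF, 5 in HOXA9 OFF and 2 under 2-fold (median -1.12); with a minimum of 100 CPM the median became 0.39, and per kept cell 2 genes lay towards CAF-1 OFF against 2 towards HOXA9 OFF. Here Csf1r, Irf8 (20.8 and 54.8 CPM) and Psap (143 and 568 CPM) were higher in HOXA9 OFF and Ccr2 in CAF-1 OFF. Dendritic cell and lymphoid lists had 3 compared genes each, of which Bst2 (137 and 51.8 CPM), Flt3 and Nkg7 were higher in CAF-1 OFF.

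Genes of eosinophils, mast cells and basophils were already unequal before induction. Prg2, the eosinophil major basic protein, stood at 141 and 876 CPM at 0 h and at 269.6 and 16629 CPM at 48 h, and Prg3 at 74.7 and 593 CPM and then at 189 and 2522 CPM. Cpa3, mast cell carboxypeptidase, was at 209 and 491 CPM and then at 1035 and 384 CPM, and Mcpt8, a basophil protease, at 40.1 and 164 CPM and then at 373 and 17.5 CPM. All of these genes were set aside, so no difference is read from them. Those eosinophil genes that were equal at 0 h and could be compared, the ribonuclease Ear2 (0.179 and 72.3 CPM) and Siglecf (21.3 and 61.2 CPM), were higher in HOXA9 OFF. The summed eosinophil list was at 229 and 1484 CPM at 0 h and 487 and 19373 CPM at 48 h, and the mast cell and basophil list at 2270.2 and 3138 and then 3832 and 3805 CPM. The part of these unequal lineage genes in the other differences was not tested. Of the 4 mast cell and basophil genes compared, 1 was higher in each arm, and Fcer1g, the shared Fc receptor gamma chain, was at 836 and 2047 CPM.

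**Figure D3:**
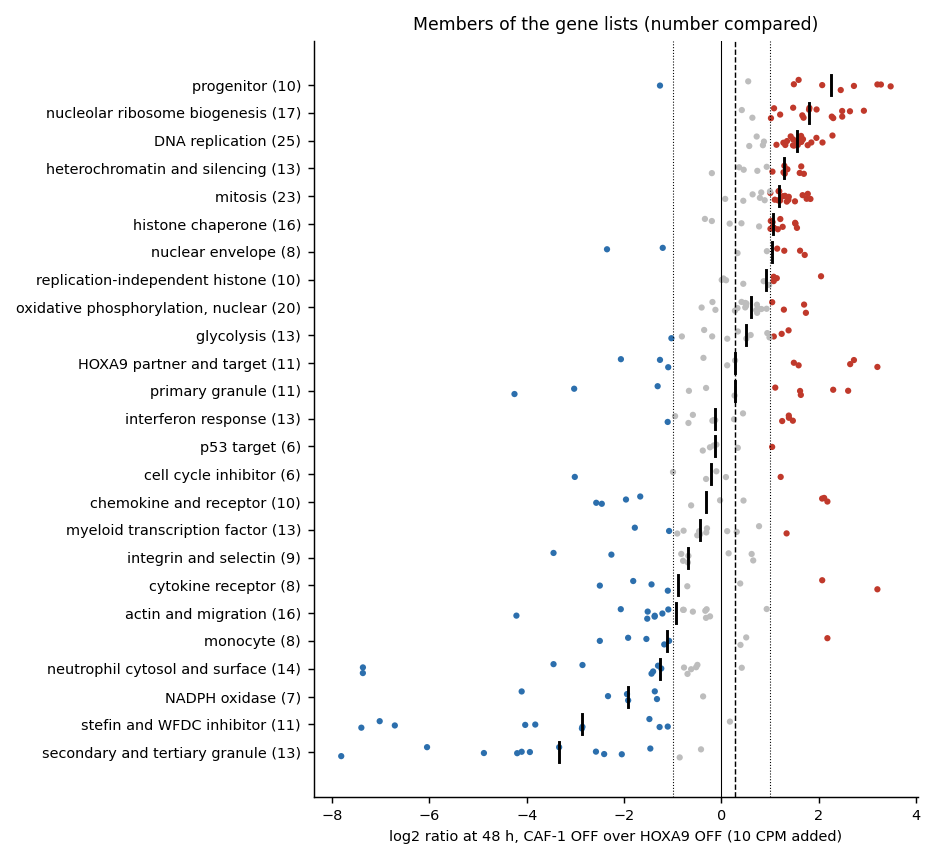
Each point is a compared gene of a list with at least 6 such genes, the x axis the log2 ratio of CAF-1 OFF over HOXA9 OFF at 48 h after adding 10 CPM, the thick bar the median of the list and the dashed line the median of all 4746 genes (0.27). The progenitor and nucleolar lists lie to the right with medians of 2.26 and 1.80, and the secondary and tertiary granule, stefin and NADPH oxidase lists to the left with -3.33, -2.87 and -1.92.

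Single cells were compared after each was thinned to 2100 UMIs, which left 901 of 927 CAF-1 OFF and 1279 of 1404 HOXA9 OFF cells at 48 h. Free RNA in droplets can give a UMI to a cell that does not express a gene, and no cell type lacking these genes was present. Shares are therefore set beside those of the uninduced libraries. For genes nearly absent at 0 h this gives no measure of free RNA at 48 h. Cd34 was found in 75.8% (72.9 to 78.6) of CAF-1 OFF and 10.3% (8.71 to 12.1) of HOXA9 OFF cells, beside 78% and 71.8% at 0 h. Pf4 was found in 39.8% (36.6 to 43.1) of CAF-1 OFF cells and 0.391% (0.127 to 0.910) of HOXA9 OFF cells (3.83% and 1.91% at 0 h). Without thinning these shares were 93.4% and 18.7% for Cd34 and 57.7% and 0.783% for Pf4. Ctsg was in nearly every CAF-1 OFF cell, 99.3%, and in 37.2% of HOXA9 OFF cells (96.5% and 96.6% at 0 h). Pcna was in 26% and 7.11% (25.8% and 25.7% at 0 h), and Mmp13, a collagenase, in 9.54% and in 0 of 1279 HOXA9 OFF cells, where a floor of 3 cells with a UMI would be 0.235%.

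UMIs of some early neutrophil genes were found in most HOXA9 OFF cells at this depth, but their counts were uneven from cell to cell. The part of free RNA in these shares was not tested. Clec4a2 was found in 81% (78.7 to 83.1) of HOXA9 OFF cells and 1.22% (0.611 to 2.17) of CAF-1 OFF cells, Stfa1 in 74.9% and 3.11%, Chil3 in 72.6% and 11.2%, and S100a8 in 55.4% and 2.66%. Without thinning the shares of Clec4a2 and S100a8 in HOXA9 OFF were 90.6% and 65%, and in CAF-1 OFF 2.48% and 4.75%. At 0 h Clec4a2, Stfa1, Chil3 and S100a8 were each in at most 0.425% of cells of either arm. Other granule and oxidase genes were in fewer HOXA9 OFF cells, with Ngp in 35.2%, Cybb in 30.2%, S100a9 in 21.6% and Ltf in 8.84%, against 0 cells of either arm at 0 h. A share counts any UMI and does not show how the UMIs were spread. S100a8, Ngp and S100a9 had means of 9.02, 5.33 and 4.05 UMIs per HOXA9 OFF cell. Clec4a2, found in more cells, had a mean of 2.18. Over 895 of the HOXA9 OFF cells, the median and highest counts were 1 and 184 for S100a8 and 6 and 128 for Chil3. Cebpe was in the majority of cells of both arms, 54.1% and 61.1%, beside 11.2% and 12.7% at 0 h.

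Genes of different programmes were also found in the same cells. In CAF-1 OFF, 251 of 901 cells (27.9%) held UMIs of both Pf4 and Cd34, beside 30.2% given by the product of the single shares, and in HOXA9 OFF 0 of 1279, with the same floor. Pf4 and Chil3 were found together in 79 of 901 cells (8.77%) of CAF-1 OFF, above the product of 4.47%, and in 4 of 1279 cells (0.313%) of HOXA9 OFF. Cd34 and S100a8 were found together in 14 of 901 cells (1.55%) of CAF-1 OFF and 66 of 1279 cells (5.16%) of HOXA9 OFF, both below the products of 2.02% and 5.71%. Prg2, set aside above, and S100a8 were found together in 441 of 1279 cells (34.5%) of HOXA9 OFF, near the product of 37.4%. Any UMI counts towards a pair. Over 895 of the HOXA9 OFF cells, the median and highest counts were 1 and 632 UMIs for Prg2 and 1 and 184 for S100a8. Free RNA as a source of such pairs was not tested. Cells are no replicates and doublets stayed in, so these are descriptions of the libraries.

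The share of a cell's UMIs that a list took overlapped little between the arms for several lists. The actin and migration list took a median of 1.09% of the UMIs of CAF-1 OFF cells and 3.30% of HOXA9 OFF cells, and 94.8% of HOXA9 OFF cells were above the 90th percentile of CAF-1 OFF. For the NADPH oxidase list the medians were 0.155% and 0.512%, and 94.8% of HOXA9 OFF cells were above that percentile. For nucleolar genes the medians were 0.453% and 0.137%, with 90.3% of HOXA9 OFF cells below the 10th percentile of CAF-1 OFF. The secondary and tertiary granule list varied more from cell to cell in HOXA9 OFF, from 0.0724% at the 10th to 3.16% at the 90th percentile (median 0.695%), and the mitosis list from 0% to 0.743% (median 0.0868%), against 0.199% to 0.871% in CAF-1 OFF (median 0.506%). Some HOXA9 OFF cells thus held mitosis genes at shares found in CAF-1 OFF.

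**Figure D4:**
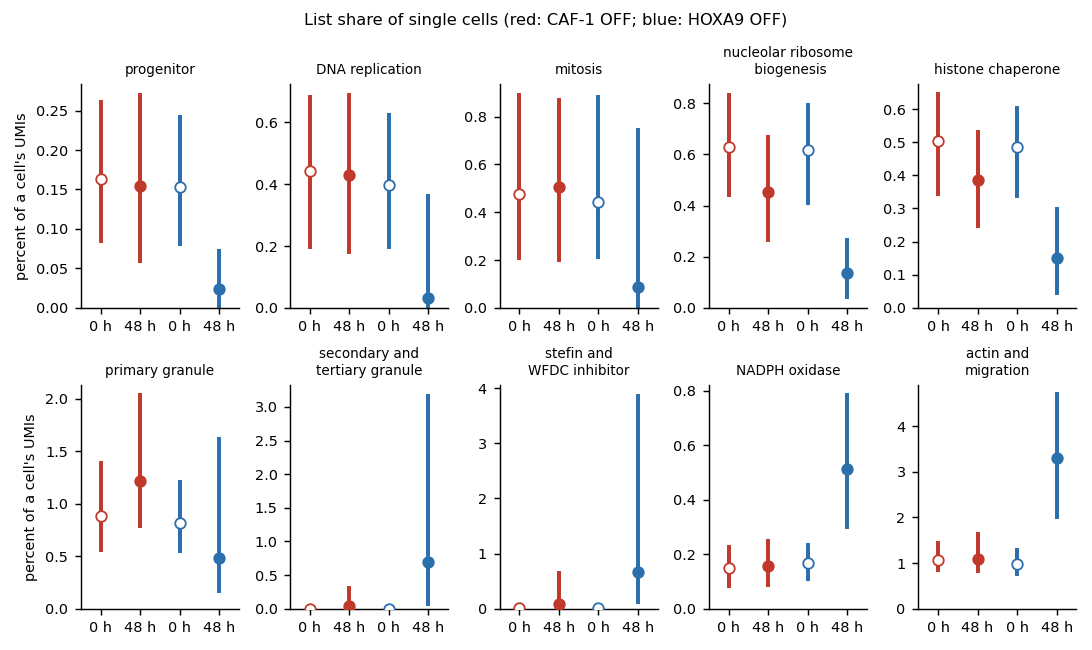
Each panel is a gene list, the y axis the percent of a cell's UMIs in that list, circles the median over cells and bars the 10th to the 90th percentile; red is CAF-1 OFF, blue HOXA9 OFF, open circles 0 h and filled circles 48 h. The open circles of both arms lie close together in all 10 panels, and the HOXA9 OFF bars at 48 h lie wholly above the CAF-1 OFF bars for the NADPH oxidase and actin lists.

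Cells of the 48 h libraries were also apart over the whole transcriptome. Each arm was 1 library of its own clone, and neighbours were not counted between the uninduced libraries. The values below therefore do not tell treatment from clone or library. With 901 cells per arm, 20 nearest neighbours and 30 principal components, 0.699% of the neighbours of CAF-1 OFF cells and 0.755% of those of HOXA9 OFF cells lay in the other arm, and 6 cells of each arm had most of their neighbours there. The 6 CAF-1 OFF cells had a median of 20 Prg2 UMIs (0 to 132) and 52.5 UMIs of the actin list, against 0 and 23 in the other 895 cells, and a median of 0 S100a8 UMIs. The 6 HOXA9 OFF cells had 10 UMIs of the nucleolar list against 3.00 and 28 of the actin list against 68.

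The 96 h libraries, which share no library with the 48 h pair but come from the same clones, were used to read these differences again. At 96 h, 1796 of the 4746 genes (37.8%) were at least 2-fold higher in CAF-1 OFF, and 737 (15.5%) lay at least 2-fold towards HOXA9 OFF. Of the 939 genes called towards CAF-1 OFF at 48 h, 880 (93.7%) stayed past 2-fold in the same direction, and of the 467 higher in HOXA9 OFF 395 (84.6%). A further 911 of the 3340 genes under 2-fold at 48 h were past it towards CAF-1 OFF at 96 h, and 339 towards HOXA9 OFF. Prtn3, under 2-fold at 48 h, was at 1874 and 31.2 CPM at 96 h, and Retnlg, barely detected at 48 h, at 5.01 and 7069.5 CPM.

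Of the genes past 2-fold at both times, 8 had changed direction. Towards HOXA9 OFF at 48 h and towards CAF-1 OFF at 96 h were Ms4a3 (371 and 934 CPM at 48 h, 1302 and 14.2 at 96 h), Plac8 (3922 and 8796 CPM, then 5882 and 1510.4), Rgcc, a regulator of the cell cycle (61.4 and 271 CPM, then 107 and 21.3), Prss57, a granule serine protease (33.3 and 125 CPM, then 51.9 and 8.51) and Tmed3, a cargo protein of the secretory pathway (174 and 547 CPM, then 276 and 99.6). In HOXA9 OFF these 5 genes were above their uninduced levels at 48 h and below their 48 h levels at 96 h. The opposite change was seen for the interferon-induced gene Rtp4 (52.1 and 13.7 CPM, then 52.5 and 450.3), the fatty acid-binding protein gene Fabp5 (130.1 and 19 CPM, then 51.5 and 140.4) and Lgmn, which encodes the protease legumain (25.4 and 0.942 CPM, then 7.97 and 50.5).

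**Figure D5:**
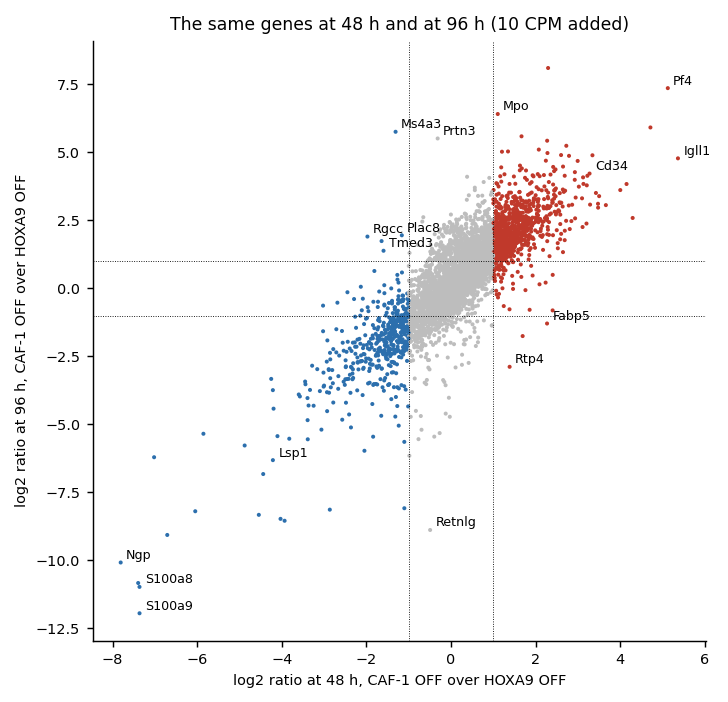
Each point is 1 of the 4746 genes; the x axis is the log2 ratio of CAF-1 OFF over HOXA9 OFF at 48 h and the y axis the same at 96 h, both after adding 10 CPM, coloured red, blue or grey by the call at 48 h. Red points lie almost all above and blue points almost all below 0 at 96 h, apart from 13 of 939 and 13 of 467, and Ms4a3, Plac8, Rgcc and Tmed3 are labelled at the upper left.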

How the data were processed

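Single-cell RNA-seq libraries (10x Genomics, 3′ end) of sorted live iGMPs were sequenced by the authors and deposited as raw UMI counts per gene and barcode, made with Cell Ranger on the mouse genome (GRCm38/mm10); the submitters' processing notes name Cell Ranger 3.0.1, Scanpy 1.4.6 and Seurat 3.0.1. A barcode's library was read from its ending as described in the labels, and 0 columns belonged to other series. Kept barcodes (200 to 6000 genes, at most 10% mitochondrial UMIs) were summed per library and scaled to CPM (UMIs per 1e6 UMIs of the library), with 5589486 and 5310431 UMIs behind the 48 h pair, so that 3 UMIs correspond to 0.537 and 0.565 CPM. Genes needed a mean of 20 CPM over the 6 libraries, a gene at 0 was given a bound at 3 UMIs, and ratios were taken after adding 10 CPM.

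The named genes were the 12 with the highest ratios in each direction among those with at least 50 CPM in either 48 h library, Chaf1a, Chaf1b, and members of 33 lists. The members and lists were chosen with earlier results of these data known, and gene families grouped by symbol were chosen after their values were seen, as were single genes outside the lists (Plac8, Rgcc, Prss57, Tmed3, Rtp4, Fabp5, Lgmn, H2-Q7 and the lectin, Fos, Junb, Hspd1 and Hsp90aa1 genes, and Mmp13). With 1 library per group no test was run; 95% intervals (binomial for folds and shares) cover counting error only. Cells were thinned to 2100 UMIs; neighbours came from 30 principal components of 2000 variable genes. Calculations used Python 3.11.15, numpy 2.4.6, scipy 1.17.1, pandas 2.3.3, scanpy 1.11.5 and scikit-learn 1.9.0, with TMM factors from edgeR 4.0.16 in R 4.3.3, and were tested on simulated data. Promoters are RefSeq windows on GRCm38.p6, matched by symbol or synonym. Alternatives covered scaling, added CPM, minimum level, barcodes, genes set aside, size and thinning. Aligned reads were not used here.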

Additional observations from a re-analysis of the deposited data

Results flagged for a closer look

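Car2, carbonic anhydrase 2, and Nkg7, a granule membrane protein, moved in opposite directions from the uninduced libraries of their own arms. For Car2 the log2 change after adding 10 CPM was 1.10 in CAF-1 OFF against -2.04 in HOXA9 OFF, a difference of 3.15. For Nkg7 it was 1.44 in CAF-1 OFF against -1.32 in HOXA9 OFF, a difference of 2.76. With 1 library per group neither difference was tested.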

How the results depend on the processing

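The depth limits single genes at low level, since 3 UMIs correspond to about 0.5 CPM, and the uninduced pair is the only check on clone differences. No paired analysis was possible because each group had 1 library. The 12 and 12 genes with the highest ratios were past 2-fold in the same direction in each of 10 alternative settings. As they were chosen for their large ratios, this largely follows from the choice and says little of the other genes. The 939 and 467 genes and the 66.8% split became 327, 223 and 59.5% after adding 50 CPM, 563, 697 and 44.7% with TMM, 614, 656 and 48.4% with median-of-ratios, 1885, 209 and 90.02% per kept cell, and 316 and 167 genes at a minimum of 100 CPM. The split was 72.1% with the minimum taken over 4 libraries and 64.0% with the 0 h ratio subtracted. At 1.5-fold 1676 and 828 genes differed, and at 4-fold 153 and 126 (54.8%). The distance of 1.07 became 1.38 after adding 1 CPM, 0.697 after adding 50 CPM, 1.06 with TMM, 1.05 with median-of-ratios, 1.08 without mitochondrial and ribosomal protein genes, 1.26 per kept cell, 1.14 with equal cell weights, 0.686 with no minimum, 1.06 with the minimum over 4 libraries, 1.31 at 100 CPM, 1.08 with no genes set aside, 1.06 with those from 1.5-fold set aside and 1.04 with the 0 h ratio subtracted. Neighbours in the other arm (0.699% and 0.755%) became 0.858% and 0.216% without thinning, 0.797% and 1.03% with 50 neighbours, 0.622% and 0.655% with 10 components, and 0.733% and 0.606% with all kept cells. The 93.7% and 84.6% past 2-fold at 96 h became 91.1% and 80.3% after adding 50 CPM, and the 93.7% became 91.4% at 1.5-fold and 87.6% at 4-fold. Over all deposited barcodes, medians were 5555 and 3343 UMIs and 1989 and 1208 genes per cell. The median of the monocyte list, -1.12, became 0.39 at a minimum of 100 CPM, where fewer genes are compared. Elsewhere the cause was not tested.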
